A study of Mus musculus with 16 samples.

Results

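The 9 structural genes of the muscle sarcomere described here are the myomesins Myom1, Myom2 and Myom3, the giant filament genes titin (Ttn) and nebulin (Neb), the myosin-binding genes Mybpc1, Mybpc2 and Mybph, and the nebulin-related anchoring gene Nrap. They were chosen by symbol, each matched 1 row of the 41388 gene rows of the count table, and all 9 passed the filter on low counts in every comparison. The study profiled RNA from whole quadriceps of mice lacking myotubularin (Mtm1), the X-linked phosphatase gene whose loss causes myotubular myopathy, and of mice fed tamoxifen, a drug that binds estrogen receptors. It held 16 libraries of C57BL/6 mice at postnatal day 36, with 4 in each of 4 groups: untreated wild type (WT), wild type given tamoxifen (WT + TAM), untreated Mtm1 knockout (KO) and Mtm1 knockout given tamoxifen (KO + TAM). Tamoxifen was mixed into the chow at 40 mg/kg from day 21, so the treated groups of both genotypes carried the same drug. The KO allele is a targeted deletion of a single Mtm1 exon, and reads from the remaining exons still enter the gene count.

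Vertebrate thick filaments are cross-linked at the middle of the sarcomere, in the M-band, by myomesins, which bind both myosin and titin. Titin runs from the Z-disc to the M-band as a molecular spring and nebulin runs along the thin filament. Myosin-binding protein C sits in stripes on the thick filament, with separate genes for the slow (Mybpc1) and fast (Mybpc2) skeletal forms. In adult muscle Mybpc2 belongs to fast fibers, and Myom3 is found mainly in intermediate fast 2A fibers rather than in the 2B fibers that dominate a mouse quadriceps.

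The libraries held 25116179 to 29847222 counted reads, and the 9 genes took 1.51 to 2.44% of them. Mtm1 had 282 to 459 counts in 7 of the 8 WT and WT + TAM libraries and 53 to 97 counts in the 8 KO and KO + TAM libraries. The library labelled WT replicate 1 had 74 Mtm1 counts, within the KO range and against its label. That library and KO replicate 12 have no column in the study's supplementary lists of pairwise comparisons, for which no reason is stated, and the main tests below follow that choice, with 3 WT, 4 WT + TAM, 3 KO and 4 KO + TAM libraries. The members' differences between untreated KO and WT, and those of the leading members in other comparisons, are also given with all 16 libraries. WT replicate 3 also stood apart: its Myh2 level, the myosin heavy chain of 2A fibers, was 17.5 normalized CPM (read counts scaled to effective library depth) against 1455 in WT replicate 4, and its Myom3 and Mybpc1 levels were the lowest of all 14 libraries. Skeletal fiber markers (6 genes) summed to 139180 to 192320 CPM in WT and WT + TAM and to 76690 to 110210 CPM in KO and KO + TAM over the 14 libraries, and averaged over treatments 5 of the 6 were lower and 1 was higher past the threshold in KO. The part of this split in the member differences was not tested.

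The start regions of the pair of genes with the largest genotype differences, Myom3 and Mybpc2, and of the gene that passed the threshold with tamoxifen averaged over genotypes, Nrap, are printed as context for the values that follow. Each line gives the 250 bases before the RefSeq start (GRCm38.p6), 5′ to 3′ on the gene's own strand, and capitals mark matches to any of 5 motifs searched on both strands. Those motifs were the E-box CANNTG bound by myogenic factors, the M-CAT element CATTCC, the estrogen receptor half-site AGGTCA, and the MEF2 and CArG motifs by their usual consensus.
Myom3 (chr4:135759465-135759714, plus strand): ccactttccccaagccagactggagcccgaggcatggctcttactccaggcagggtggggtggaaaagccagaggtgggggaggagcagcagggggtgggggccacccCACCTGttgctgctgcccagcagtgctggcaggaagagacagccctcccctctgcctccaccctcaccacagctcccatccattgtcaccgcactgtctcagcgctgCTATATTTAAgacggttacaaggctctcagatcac
Mybpc2 (chr7:44524670-44524919, minus strand): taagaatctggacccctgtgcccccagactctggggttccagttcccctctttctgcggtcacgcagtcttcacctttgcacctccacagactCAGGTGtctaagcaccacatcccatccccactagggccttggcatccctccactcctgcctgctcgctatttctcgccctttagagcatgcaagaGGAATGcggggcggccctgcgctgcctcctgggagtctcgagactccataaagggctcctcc
Nrap (chr19:56390039-56390288, minus strand): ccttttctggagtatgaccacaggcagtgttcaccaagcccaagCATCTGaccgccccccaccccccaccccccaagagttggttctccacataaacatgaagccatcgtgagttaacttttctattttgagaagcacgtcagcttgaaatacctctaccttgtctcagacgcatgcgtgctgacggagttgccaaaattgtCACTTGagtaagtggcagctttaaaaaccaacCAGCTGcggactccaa
The Myom3 window held 1 MEF2 match, 26 to 35 bases before the start, and 1 E-box. Over 32851 promoters of the same length 2.92% held a MEF2 match and 66.2% held an E-box. The Mybpc2 window held 1 M-CAT match, 57 to 62 bases before the start, against 12.6% of all promoters, and 1 E-box. The Nrap window held 3 E-boxes and no match to the estrogen receptor half-site, which occurred in 14% of promoters, and no CArG match, which occurred in 1.47%. Promoters were matched for 7 of the 9 genes. The only member with a CArG match was Myom1, in the window of an internal start, and Ttn held the other MEF2 match.

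Levels of different genes were compared as RPKM, read counts divided by gene length and by library depth. In WT, Mybpc2 was the highest of the 9 at 1804 ± 434 RPKM (SD, n = 3) and Myom3 the lowest at 3.67 ± 3.03 RPKM. Between them lay Mybph (287 ± 108), Mybpc1 (235 ± 81.5), Myom2 (224 ± 26.2) and Myom1 (217 ± 8.17), whose ranges overlapped each neighbor in that order. Nrap (124 ± 13.4) and Neb (109 ± 14.3) also overlapped, and Ttn followed at 42.5 ± 3.72 RPKM. The ends of the order in KO + TAM were the same, with Mybpc2 at 825 ± 115 and Myom3 at 30.6 ± 2.08 RPKM (n = 4), but Mybpc1 stood clear of the rest in second place at 522 ± 62.6 RPKM. Mybpc2 thus led in all 4 groups and Myom3 was last in all 4.

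Myom3 (chromosome 4, 135759715 to 135815564, plus strand, GRCm38) showed the widest genotype difference of the set. Its RPKM was 3.97, 0.492 and 6.54 in WT replicates 2 to 4, and 3.60, 3.42, 4.26 and 4.16 in WT + TAM replicates 5 to 8. It was 31.2, 24.4 and 19.5 in KO replicates 9 to 11, and 30.5, 33.5, 28.7 and 29.6 in KO + TAM replicates 13 to 16. Every KO and KO + TAM library lay above every WT and WT + TAM library, by a gap from 6.54 to 19.5 RPKM. With tamoxifen in both genotypes Myom3 was 6.54-fold higher in KO + TAM (log2 fold change 2.71, SE 0.12, edgeR adjusted p = 1.40e-06), and it ranked number 1 by p-value among 14563 genes tested. Without tamoxifen the difference was of like size but did not pass the threshold of 0.01 (log2 fold change 2.49, SE 0.65, edgeR adjusted p = 0.0384). The wide error came with the WT spread, where the highest library held 12.2 times the CPM of the lowest. Without WT replicate 3 the untreated difference was 1.98 on the log2 scale (edgeR adjusted p = 0.00541). The library labelled WT replicate 1 held 10.1 RPKM and KO replicate 12 held 23.6 RPKM, and with both included the log2 difference was 1.83 (edgeR adjusted p = 0.141). KO + TAM also exceeded untreated WT (log2 fold change 2.82, SE 0.58, edgeR adjusted p = 0.00777; 2.16 and adjusted p = 0.0675 with all 16 libraries). That call was also lost without WT replicate 2 or without any 1 KO + TAM replicate, at log2 fold changes from 2.78 to 2.88 (edgeR adjusted p of at most 0.0241).

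**Figure D1:**
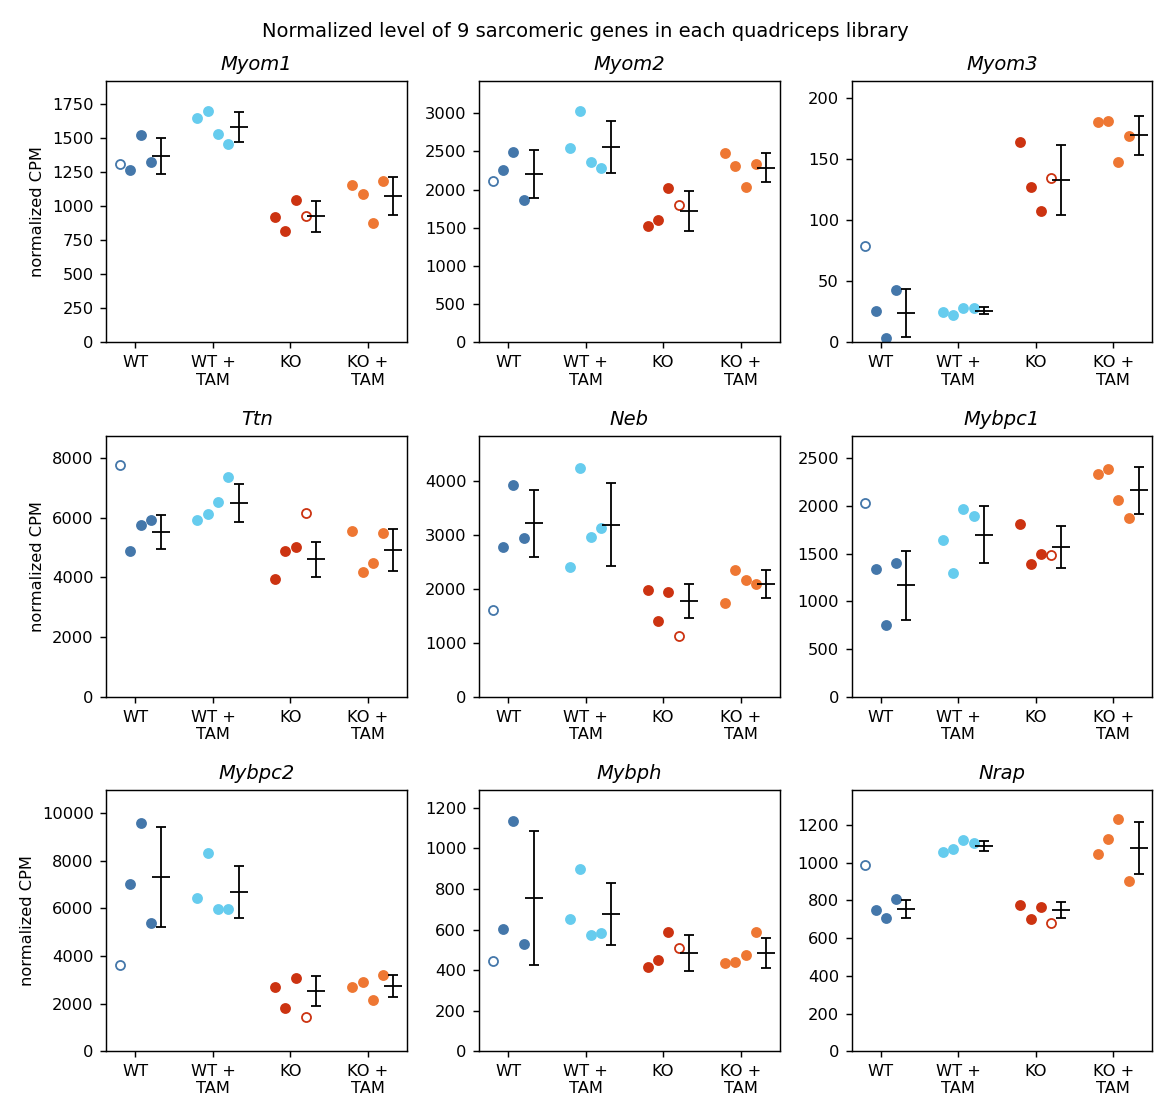
Normalized CPM (linear axis from 0) of each of the 9 genes in WT, WT + TAM, KO and KO + TAM quadriceps. Filled points are the 14 libraries tested, open points the 2 libraries left out (scaled with all 16), and bars the mean ± SD of the filled points; Myom3 is higher and Mybpc2 lower in all filled KO and KO + TAM libraries than in all filled WT and WT + TAM libraries.

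Myom1 (chromosome 17, 71002633 to 71126856, plus strand), the myomesin of all striated muscle, differed in the opposite direction by a smaller amount. Its normalized CPM was 1268, 1523 and 1328 in WT, and 1652, 1703, 1530 and 1457 in WT + TAM. In KO it was 920, 817 and 1046, and in KO + TAM 1158, 1089, 880 and 1191. The KO libraries lay below the WT libraries and the KO + TAM libraries below the WT + TAM libraries, without overlap. Neither difference passed the threshold by itself (log2 fold change -0.54, SE 0.15, edgeR adjusted p = 0.0476 without tamoxifen, and -0.55, SE 0.13, edgeR adjusted p = 0.0149 with it). Myom2 (chromosome 8, 15057653 to 15133541, plus strand), the fast-fiber myomesin, ranged from 1868 to 3032 CPM in WT and WT + TAM and from 1530 to 2483 CPM in KO and KO + TAM. Its groups overlapped, and its log2 fold changes were -0.34 and -0.16 (edgeR adjusted p = 0.232 and 0.448), the latter turning to 0.11 when scaled by total counts alone.

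Within the myomesin family the RPKM share of Myom1 was lower and that of Myom3 higher in KO and KO + TAM. Myom3 made up 0.851 ± 0.735% of the 3 genes' summed RPKM in WT and 0.759 ± 0.148% in WT + TAM, against 5.90 ± 1.68% in KO and 5.89 ± 0.273% in KO + TAM. Myom1 made up 48.9 ± 2.73%, 48.9 ± 1.66%, 43.0 ± 1.63% and 39.8 ± 1.61% in the same order. The Myom2 share was 50.2 ± 3.19% in WT and 54.3 ± 1.45% in KO + TAM. The library labelled WT replicate 1 had a Myom3 share of 2.69%, above the other WT libraries (0.106 to 1.57%) and below every KO library (4.12 to 7.47%). These shares were not tested. Shares of a family sum to the whole in each library, so a higher share of a member lowers the others.

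**Figure D2:**
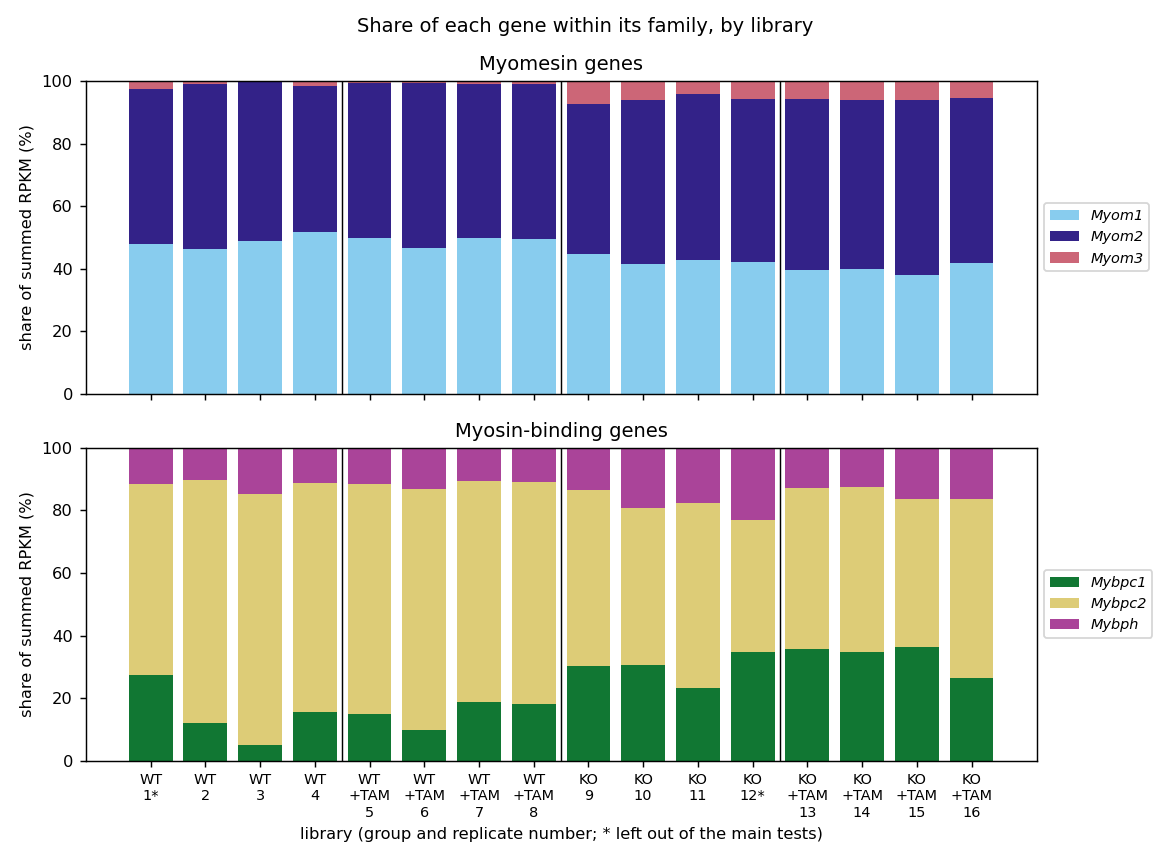
Share (%) of each gene in the summed RPKM of the 3 myomesin genes (top) and the 3 myosin-binding genes (bottom) in each of the 16 libraries, with asterisks on the 2 left out of the main tests. The Myom3 band is 4.12 to 7.47% in KO libraries and 0.106 to 2.69% in WT libraries; the Mybpc1 band is widest in KO + TAM replicate 15, at 36.4%.

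Titin (chromosome 2, 76703980 to 76982547, minus strand) and nebulin (chromosome 2, 52136647 to 52378474, minus strand) had smaller genotype differences than Myom3 and Mybpc2. Neb was 2769, 3918 and 2943 CPM in WT and 1977, 1405 and 1936 CPM in KO. It was 2412, 4240, 2950 and 3134 CPM in WT + TAM, and 1745, 2349, 2168 and 2091 CPM in KO + TAM. The groups did not overlap in either pair, with the narrowest gap between 2349 CPM in KO + TAM replicate 14 and 2412 CPM in WT + TAM replicate 5. The log2 fold change was -0.83 (SE 0.20, edgeR adjusted p = 0.0281) without and -0.61 (SE 0.18, edgeR adjusted p = 0.0375) with tamoxifen, neither past 0.01. In RPKM, both libraries left out lay below the other 14 in Neb. The library labelled WT replicate 1 held 47.3 RPKM and KO replicate 12 held 45.1 RPKM, against 61.7 to 147 RPKM in the other 14. Scaled with all 16 libraries, KO replicate 12 was still the lowest, at 1121.3 CPM of Neb. The library labelled WT replicate 1, at 1615.5 CPM, then lay above KO replicate 10, at 1384.5 CPM. With both libraries left out included, the untreated log2 difference was -0.78 (edgeR adjusted p = 0.143). Ttn ranged from 4871 to 7345 CPM in WT and WT + TAM and from 3942 to 5540 CPM in KO and KO + TAM. Its log2 fold changes were -0.24 (SE 0.17, edgeR adjusted p = 0.391) and -0.40 (SE 0.15, edgeR adjusted p = 0.0873), with groups that overlapped in the untreated pair only. Scaled by total counts alone, which put the median of all genes in the untreated pair at 0.33 in place of 0.023, the Ttn value there turned to 0.078. Over the 582 genes with implied lengths of 10000 bases or more, the median log2 fold change was -0.020 without and -0.12 with tamoxifen.

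Mybpc2 (chromosome 7, 44501699 to 44524656, minus strand), the fast form, was the member that passed the threshold in all 3 comparisons of KO or KO + TAM with wild-type groups. Its RPKM was 1826, 2226 and 1359 in WT, and 1572, 2096, 1487 and 1488 in WT + TAM. It was 854, 583 and 934 in KO, and 762, 895, 696 and 945 in KO + TAM. Every KO and KO + TAM library lay below every WT and WT + TAM library. Mybpc2 was 2.85-fold lower in KO than in WT (log2 fold change -1.51, SE 0.26, edgeR adjusted p = 0.00886) and 2.43-fold lower in KO + TAM than in WT + TAM (log2 fold change -1.28, SE 0.17, edgeR adjusted p = 8.44e-04). Against untreated WT, KO + TAM was 2.66-fold lower (edgeR adjusted p = 0.00202). The library labelled WT replicate 1 held 776 RPKM, inside the KO range of RPKM, and KO replicate 12 held 424 RPKM. Scaled with all 16 libraries, the library labelled WT replicate 1 had 3639 CPM of Mybpc2. That lay above every KO and KO + TAM library (at most 3175 CPM) and below every other WT and WT + TAM library (at least 5295 CPM). With both included the untreated log2 difference was -1.47 and no longer passed (edgeR adjusted p = 0.0317), and the difference between KO + TAM and WT was -1.23 (edgeR adjusted p = 0.0261). Leaving out any 1 of the 6 untreated libraries (WT replicates 2 to 4, KO replicates 9 to 11) also lifted the untreated edgeR adjusted p above 0.01, to at most 0.0298, with log2 fold changes from -1.69 to -1.27.

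Mybpc1 (chromosome 10, 88518279 to 88605152, minus strand), the slow form, had positive log2 values where those of Mybpc2 were negative. It was 1340, 756 and 1406 CPM in WT and 1813, 1394 and 1495 CPM in KO. In the treated groups it was 1642, 1299, 1963 and 1898 CPM in WT + TAM and 2332, 2391, 2061 and 1869 CPM in KO + TAM. WT replicate 3, with 756 CPM of Mybpc1, had 1.25 CPM of Myh7, a slow-fiber gene. The Mybpc1 groups overlapped in both pairs, with log2 fold changes of 0.45 (SE 0.24, edgeR adjusted p = 0.238) and 0.35 (SE 0.16, edgeR adjusted p = 0.148). Among the 14 libraries every KO + TAM library lay above every untreated WT library. The difference did not pass (log2 fold change 0.89, SE 0.22, edgeR adjusted p = 0.0172). With all 16 libraries it was 0.63 (edgeR adjusted p = 0.187). Scaled that way, the library labelled WT replicate 1 had 2032 CPM of Mybpc1, above KO + TAM replicate 16 at 1841 CPM. Mybph (chromosome 1, 134193448 to 134201232, plus strand), which encodes the smaller myosin-binding protein H, ranged from 528 to 1133 CPM in WT and WT + TAM and from 416 to 589 CPM in KO and KO + TAM. Its log2 fold changes were -0.61 and -0.48 (edgeR adjusted p = 0.175 and 0.0666), with overlap in both pairs. Of its exon bases 49.9% overlap Adora1 on the opposite strand. Adora1 had 119 to 735 counts, and whether counting used strand is not given in the sources used here.

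As shares of the 3 myosin-binding genes' summed RPKM, Mybpc2 made up 77.1 ± 3.44% in WT and 55.2 ± 4.71% in KO, and 73.2 ± 2.99% in WT + TAM and 52.2 ± 4.07% in KO + TAM. Mybpc1 made up 10.8 ± 5.25% in WT and 28.0 ± 4.29% in KO, and 15.3 ± 4.09% in WT + TAM and 33.3 ± 4.56% in KO + TAM. Mybph held 12.1 ± 2.34%, 11.5 ± 1.11%, 16.8 ± 2.95% and 14.5 ± 2.11% in WT, WT + TAM, KO and KO + TAM. The Mybpc1 share did not overlap between genotypes over the 14 libraries (5.07 to 18.6% against 23.1 to 36.4%). The library labelled WT replicate 1, at 27.3%, lay inside the KO range.

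Nrap (chromosome 19, 56320035 to 56390037, minus strand), which links actin filaments to the membrane at myotendinous junctions and during myofibril assembly, had log2 genotype differences near 0 under the main scaling and was higher with tamoxifen in the average over genotypes. Its CPM was 747, 709 and 807 in WT and 777, 700 and 766 in KO. It was 1058, 1071, 1119 and 1103 in WT + TAM and 1044, 1126, 1231 and 905 in KO + TAM. Every treated library lay above every untreated library of the 14, and the lowest treated library was KO + TAM replicate 16. The log2 fold change between genotypes was 0.012 (95% interval -0.28 to 0.30) without and -0.014 (-0.28 to 0.25) with tamoxifen. Scaled by total counts alone the untreated value was 0.32 (edgeR adjusted p = 0.0954), and with limma on log2 RPKM it was 0.32 (limma adjusted p = 0.0765). The tamoxifen difference was 0.53 (SE 0.11, edgeR adjusted p = 0.0707) in WT and 0.51 (SE 0.15, edgeR adjusted p = 0.374) in KO, on the log2 scale, and neither passed. The KO difference minus the WT difference was -0.0026 (95% interval -0.35 to 0.35). Averaged over both genotypes, in a comparison added after the values were seen, Nrap was 1.44-fold higher with tamoxifen (log2 fold change 0.53, SE 0.084, edgeR adjusted p = 0.00367). With all 16 libraries that average was 0.48 (edgeR adjusted p = 0.0142), with total-count scaling it was 0.50 (edgeR adjusted p = 0.0127), and without WT replicate 2 or 3, WT + TAM replicate 7 or 8 or KO replicate 10 it was 0.50 to 0.52 with an adjusted p between 0.0101 and 0.0148. Scaled with all 16 libraries, the library labelled WT replicate 1 had 989 CPM against 891 CPM in KO + TAM replicate 16, so treated and untreated libraries overlapped once it was included.

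**Figure D3:**
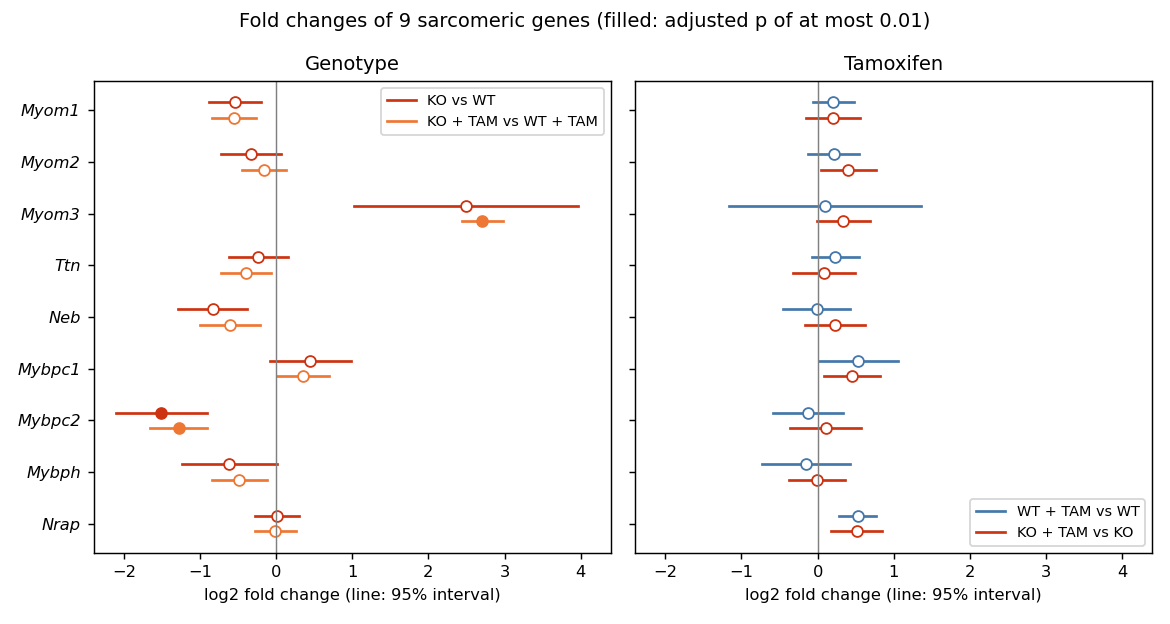
Log2 fold changes of the 9 genes with 95% intervals, for genotype (left, KO vs WT and KO + TAM vs WT + TAM) and tamoxifen (right, WT + TAM vs WT and KO + TAM vs KO); filled points passed an adjusted p of 0.01. Only Mybpc2 (both genotype comparisons) and Myom3 (2.71, with tamoxifen) are filled, and the Nrap tamoxifen points lie at 0.53 and 0.51.

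Counted over the set, 1 of 9 members passed in KO against WT (Mybpc2, lower), where 3.6% of all tested genes passed, and 4 of 9 had groups that did not overlap (Myom3 higher, Myom1, Neb and Mybpc2 lower), against 36.4% of all genes. With tamoxifen in both genotypes 2 of 9 passed (Myom3 higher, Mybpc2 lower), against 6.72% of genes, and 5 of 9 did not overlap (Ttn lower in addition), against 22.5%. Myom3 and Mybpc2 also passed in KO + TAM against WT, against 7.7% of genes. KO + TAM against WT shares its WT libraries with the untreated pair and its KO + TAM libraries with the treated pair, so the 3 comparisons are not independent. The untreated and treated pairs share no library. The members' median log2 fold change was -0.34, -0.40 and -0.17 in the 3 comparisons, where that of all tested genes was 0.023, -0.014 and -0.0013. The members were chosen with earlier results of these data known, so their counts beside the shares of all genes carry no test. Averaged over treatments, in the other comparison added after the values were seen, 4 of 9 members differed between genotypes, against 19.4% of genes. They were Myom3 (2.59, SE 0.34, edgeR adjusted p = 4.71e-05), Mybpc2 (-1.41, SE 0.16, 1.27e-05), Myom1 (-0.56, SE 0.095, 4.14e-04) and Neb (-0.73, SE 0.14, 9.12e-04) on the log2 scale. The same 4 passed with all 16 libraries, and Myom1 (-0.25) and Neb (-0.42) did not pass when libraries were scaled by total counts alone. Mybph (-0.56, edgeR adjusted p = 0.0184), Ttn (-0.33, 0.0261) and Mybpc1 (0.39, 0.0485) did not pass. With all 16 libraries the untreated log2 differences of the members not given above were -0.53 for Myom1, -0.30 for Myom2, -0.26 for Ttn, 0.17 for Mybpc1, -0.43 for Mybph and -0.13 for Nrap, and no member passed (edgeR).

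The tamoxifen comparisons asked whether treatment moved these genes within a genotype. Between KO + TAM and KO edgeR passed 0 of 9 members and 0% of all genes, where 1137 genes had an unadjusted p of at most 0.05 and DESeq2 passed 72; 3 members had an unadjusted p of at most 0.05 (Myom2 0.40, Mybpc1 0.45 and Nrap 0.51 on the log2 scale), and DESeq2 passed 0 members. In WT + TAM against WT edgeR passed 0 members, against 0.131% of genes; 2 had an unadjusted p of at most 0.05 (Mybpc1 0.54 and Nrap 0.53), as had 1549 of all 14544 genes, and DESeq2 passed 214 genes, with Nrap the only member among them. Myom3 in treated KO minus untreated KO was 0.34 (95% interval -0.011 to 0.69) and Mybpc2 was 0.11 (-0.36 to 0.58), and both intervals leave out a return to the WT level. With all 16 libraries these were 0.33 and 0.27, those of Nrap 0.54 in KO and 0.42 in WT, and again edgeR passed 0 members in either genotype. The tamoxifen difference itself did not pass for any member when compared between genotypes, with log2 values from -0.14 to 0.25, an unadjusted p of at most 0.05 in 0 of 9, and 0% of all genes past the threshold with edgeR (664 at an unadjusted p of at most 0.05). DESeq2 passed 12 genes there and no member. Averaged over genotypes 1 of 9 members passed (Nrap), against 0.591% of genes, while Mybpc1 was at 0.50 (SE 0.14, edgeR adjusted p = 0.0965) and Myom2 at 0.31 (edgeR adjusted p = 0.168).

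Myosin heavy chain genes, which define fiber types, were set beside the 2 leading members. Myh4, the chain of 2B fibers, was 28607 to 53829 CPM in the WT and WT + TAM libraries and 13617 to 20056 CPM in the KO and KO + TAM libraries. Its log2 fold change was -1.30 (edgeR adjusted p = 0.0184) without and -1.24 (edgeR adjusted p = 8.33e-04) with tamoxifen. The log2 ratio of Mybpc2 to Myh4 counts stayed between -2.90 and -2.35 over the 14 libraries. Myh2, the chain of 2A fibers, was 17.5 to 1455 CPM in WT and WT + TAM and 915 to 4120 CPM in KO and KO + TAM. Its log2 fold change was 1.21 (SE 1.02, edgeR adjusted p = 0.467) without and 1.51 (SE 0.38, edgeR adjusted p = 0.0200) with tamoxifen. The log2 ratio of Myom3 to Myh2 counts was -5.24 to -2.31 in WT and WT + TAM and -4.51 to -3.09 in KO and KO + TAM, ranges that overlap. In the untreated pair the overlap came from WT replicate 3 alone (-2.31, with Myh2 at 17.5 CPM). WT replicates 2 and 4 were at -5.03 and -5.08, against -3.98 to -3.09 in KO. In the treated pair WT + TAM replicate 6 (-3.93) lay above KO + TAM replicate 13 (-4.51). The ratio was not tested. In whole muscle, fewer cells of a type and less RNA per cell cannot be told apart.

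**Figure D4:**
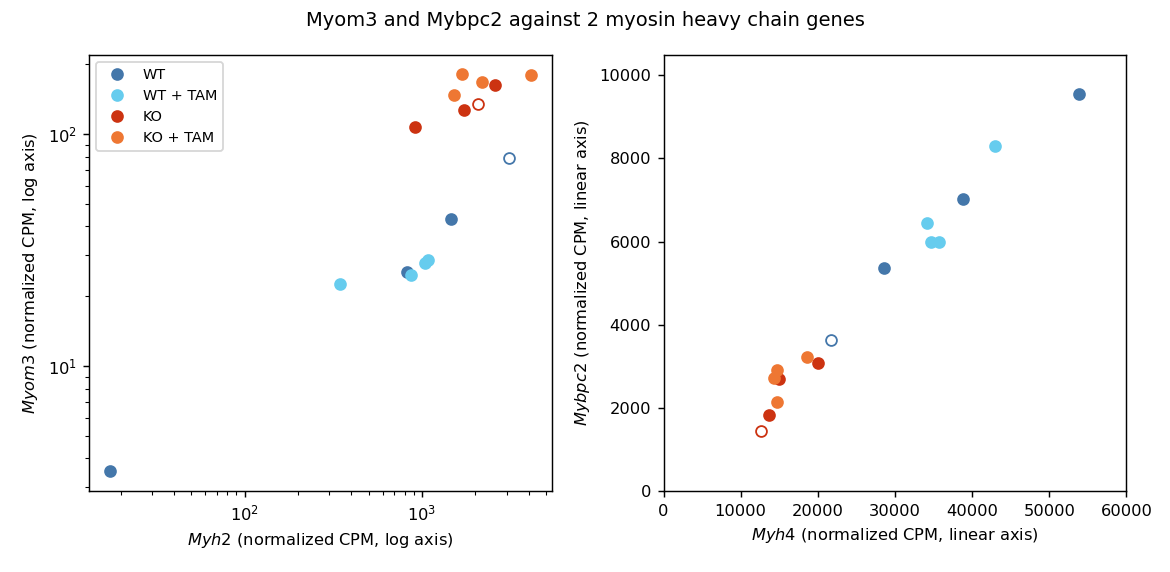
Left, Myom3 against Myh2 (normalized CPM, both axes log); right, Mybpc2 against Myh4 (normalized CPM, both axes linear from 0), with 1 point per library, colored by group and open for the 2 libraries left out. Filled KO and KO + TAM points lie above filled WT and WT + TAM points in Myom3, while their Myh2 ranges (915 to 4120 and 17.5 to 1455 CPM) overlap. In both Myh4 and Mybpc2 they lie below all filled WT and WT + TAM points. Within a genotype the order of libraries differs between these genes.

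Among lists of fiber genes, 9 of 10 slow-fiber genes had log2 values above 0 in each genotype comparison (list medians 1.03 without and 1.25 with tamoxifen), and 2 rose past the threshold, both with tamoxifen (Tnni1 2.81 and Atp2a2 1.05). Of 10 fast 2X and 2B genes 9 had log2 values below 0 in each of the same comparisons. Past the threshold 1 fell without tamoxifen (Actn3, -1.36) and 4 fell with it (Myh4, Actn3, Pvalb and Atp2a1). The gene above 0 in both was Myh1, the myosin heavy chain gene listed beside Myh4, at 0.97 and 0.78 (edgeR adjusted p = 0.173 and 0.0429). Of 9 developmental genes, which fetal or regenerating fibers use, 8 rose in each, among them embryonic Myh3 (3.89 and 3.35) and perinatal Myh8 (2.60 and 1.83), while cardiac actin Actc1 fell by 2.88 in the untreated pair. Markers of other cell types moved with genotype too. Immune markers (5 genes) summed to 20.1 to 47.5 CPM in WT and WT + TAM and 52.3 to 92.7 CPM in KO and KO + TAM, and smooth muscle markers (5 genes, including Des, which skeletal fibers also express) to 2895 to 3505 and 4249 to 6656 CPM over the 14 libraries. All 4 immune genes tested had log2 values above 0 in both pairs (medians 0.83 and 0.75) without passing, and of the smooth muscle list Des alone passed in each. The higher smooth muscle sum came with Des, since Acta2, Myh11 and Cnn1 were at -0.59, -0.56 and -0.67 in KO against WT and the list medians were -0.56 and -0.16, and averaged over treatments Acta2 and Myh11 fell. Fat cell markers (6 genes, none past the threshold) had a median of 0.64 in KO against WT and -0.63 in KO + TAM against WT + TAM, where all 6 were below 0, and of 0.89 in WT + TAM against WT, where all 6 were above 0, and -0.13 in KO + TAM against KO. The part of fiber type, maturity or cell makeup in the member differences, those with tamoxifen included, was not tested.

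A list of 43 partner genes of these proteins (titin ligands, chaperones, thin-filament and Z-disc proteins) was followed as the surrounding pathway, of which 41 were tested. In KO against WT 4 rose and 5 fell, with a list median of 0.059 on the log2 scale. Ankyrin repeat proteins that bind titin's I-band spring split: Ankrd1 rose by 4.16 (SE 0.28, edgeR adjusted p = 2.14e-04) and Ankrd23 fell by 1.99 (SE 0.26, edgeR adjusted p = 0.00271). Fhl2, a LIM protein that binds titin, rose by 1.81, and Xirp1, an actin-binding repeat protein, rose by 1.21. The methyltransferase gene Smyd2 fell by 1.36 and the muscle ubiquitin ligase gene Trim55 by 1.35 on the log2 scale. Between KO + TAM and WT + TAM 9 rose and 6 fell, with a median of -0.077. Ankrd1 (4.02), Csrp3, the muscle LIM protein (2.99), Ankrd2 (2.62), Fhl2 (2.33), Fhl1 (1.84) and Xirp1 (1.70) were the 6 with the largest values. Between KO + TAM and WT 8 rose and 6 fell, and Smyd2 was at -0.33 (edgeR adjusted p = 0.186). The list medians in the tamoxifen comparisons were 0.15 in KO and 0.079 in WT, and 0 partner genes passed in either. Averaged over genotypes, in the comparison added after the values were seen, 1 of 41 passed, against 0.591% of genes. It was Smyd2, higher with tamoxifen by 0.80 (SE 0.12, edgeR adjusted p = 0.00339). In KO + TAM against KO its value was 1.04 (edgeR adjusted p = 0.132).

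The genes whose profiles lay closest to each member were sought among 15556 genes, as the smallest root mean square difference of centered log2 CPM over the 14 libraries. For Myom3, whose own SD was 1.63, the 2 closest were Ankrd2 (0.44) and Hspb7, a small heat shock protein gene (0.48). Ankrd2 ran from 10.4 CPM in WT replicate 3, the library with the least Myom3, to 616 CPM in KO + TAM replicate 15. For Mybpc2 (SD 0.75) they were the calmodulin gene Calm3 (0.15) and Myh4 (0.16), and for Neb (SD 0.43) the supervillin gene Svil (0.081) and Prkrir (0.099). For Myom1 (SD 0.33) they were the glycolytic gene Gapdh (0.077) and Coa7 (0.11). Mybpc1 was closest to Fgf1 (0.21) and Vgll2 (0.22), and Nrap to Zfp865 and Trabd, at 0.13 and 0.14. The closest gene was Serbp1 (0.13) for Myom2, Rnf220 (0.11) for Ttn and Hinfp (0.18) for Mybph. These distances describe the 14 libraries, whose profiles share group differences and scaling, and carry no test.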

How the data were processed

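RNA from whole quadriceps of 16 mice was sequenced, with 4 libraries per group. Per the study's methods the authors aligned reads to GRCm38 with STAR in 2 passes and counted them per gene with HTSeq, and deposited raw counts per gene and a table of RPKM. The submitters' processing notes name bcl2fastq 2.17, STAR 2.5.0c and Cufflinks 2.2.1. The annotation, the counting mode and the strand setting were not stated in the labels or methods. Per the study's methods each n is a separate mouse.

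Counts were tested with edgeR 4.0.16 in R 4.3.3 (TMM scaling, filterByExpr with a minimum count of 10 and a minimum total of 15, quasi-likelihood test, Benjamini-Hochberg adjustment over all genes tested), and a gene passed at an adjusted p of at most 0.01. Each pair of groups was fitted by itself over the 14 libraries that have columns in the study's supplementary lists. The interaction and the averages over genotype or treatment were contrasts in 1 fit of 4 groups, and both averages were added after the values were seen. Normalized CPM use TMM factors of the 14 libraries. Summed marker CPM, and CPM of the 2 libraries left out or said to be scaled with all 16 libraries, use factors of all 16. RPKM are the deposited values; implied gene lengths were read from counts and RPKM. Depth was 25116179 to 29847222 counts, and intervals are 95%. No library pair held identical counts (120 pairs). The tests were checked on simulated counts with the same dispersion for every gene and changes larger than most member differences. That check does not cover smaller changes or genes as variable as Myom3 in WT. The members and gene lists were chosen with earlier results of these data known. The genes named beyond the members are, by rule, list genes that passed (at most 6 partner genes with the largest change per comparison), fiber-type genes and the 2 nearest profiles per member; Adora1 and the Mtm1 check were named in addition. Gene positions are from GENCODE vM21 and promoter sequences from RefSeq (GRCm38.p6). Alternatives were DESeq2 1.42.0, RLE or total-count scaling, no low-count filter, a threshold of 0.05, 1 fit of 4 groups, all 16 libraries, leaving out each library, and limma 3.58.1 on log2(RPKM + 1) of genes with an RPKM of at least 1.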

Additional observations from a re-analysis of the deposited data

How the results depend on the processing

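The number of members that passed (of 9) is given for each setting that moved it by more than 1.5 times. In KO against WT (1, and 531 of 14740 genes) it was 4 at a threshold of 0.05 (1885 genes), 3 with DESeq2 (1678) and 3 with no low-count filter (1096 of 22672). It was 2 in 1 fit of 4 groups (987 of 15556), 0 with all 16 libraries (211 of 14625) and 0 with limma on RPKM (945 of 11104). Leaving out each library it was 0 to 1 (182 to 363 genes), at 0 without WT replicates 2 or 4 or KO replicates 9, 10 or 11. Without WT replicate 3 Myom3 passed in place of Mybpc2. In KO + TAM against WT + TAM (2, and 979 of 14563 genes) it was 4 at 0.05 (2476 genes) and 4 with DESeq2 (1995). Smaller moves were to 3 with total-count scaling (1874) and in 1 fit of 4 groups (1325 of 15556). Myom3 and Mybpc2 passed under all 15 alternatives run there. For KO + TAM against WT (2, and 1150 of 14942 genes) it was 5 at 0.05 (2993 genes), 5 with DESeq2 (2375) and 4 with total-count scaling (1871). It was 4 in 1 fit of 4 groups (1269 of 15556), 4 with limma (1518 of 11184) and 0 with all 16 libraries (297 of 14647). Leaving out each library it was 1 to 2 (531 to 1246 genes), at 1 without WT replicate 2 or any KO + TAM replicate. In WT + TAM against WT (0, and 19 of 14544 genes) DESeq2 passed 1 member (214 genes). Averaged over treatments (4, and 3013 of 15556 genes) the count was 7 at 0.05 (5180 genes). Smaller moves were 6 with DESeq2 (3939), 3 with total-count scaling (5100) and 5 without WT replicate 4 (2521 of 15928). The tamoxifen average (1, and 92 of 15556 genes) was 0 with total-count scaling (96 genes) and 0 with all 16 libraries (92 of 15389). Leaving out each library it was 0 to 1 (51 to 82 genes), at 0 without WT replicates 2 or 3, WT + TAM replicates 7 or 8 or KO replicate 10.

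Signs turned for small log2 values. For Nrap in KO against WT the value was -0.0046 with DESeq2 and RLE scaling, -0.13 with all 16 libraries, -0.013 in 1 fit of 4 groups and -0.033 to 0.066 leaving out each library. For Ttn there it was 0.078 with total-count scaling and 0.073 with limma. In KO + TAM against WT + TAM, Myom2 was 0.11 with total-count scaling and 0.12 with limma, and Nrap was 0.27, 0.25 and -0.077 to 0.062 leaving out each library. Mybpc2 in KO + TAM against KO was -0.081 to 0.28 leaving out each library, and the Nrap interaction was 0.14 with all 16 libraries and -0.074 to 0.072 leaving out each library. The causes were not tested. In comparisons of genotypes all genes had a log2 median of 0.27 to 0.33 with total-count scaling, against -0.014 to 0.023 with TMM.

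No paired analysis was possible because no replicate number occurs in more than 1 group and, although the study used littermates, the labels do not give each library's litter. With 3 or 4 libraries per group, exact permutation tests cannot go below p = 0.1 (3 against 3) or 0.0286 (4 against 4 and 3 against 4). The lowest count of a member was 82 (Myom3 in WT replicate 3).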
